A study of Bos taurus with 48 samples.

Results

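The citric acid cycle oxidises acetyl groups in the mitochondrial matrix and passes the electrons to the respiratory chain, and skeletal muscle draws on it whenever its fibres make ATP with oxygen. Its expression was followed here through 9 genes, namely CS, IDH3A, IDH2, OGDH, SUCLG1, SDHA, SDHB, FH and MDH2, taken as the probes whose gene name or bracketed description symbol equalled 1 of these names. All 9 were on the array and all 9 passed the filter on dim probes, among 14715 genes tested. Each is described below by 1 probe of 60 bases, spotted in duplicate. The values of a gene average all probes named to it that passed the filter. The order of the reactions sets the order of the names. Citrate synthase (CS) condenses acetyl-CoA with oxaloacetate, the NAD-dependent isocitrate dehydrogenase (catalytic subunit IDH3A) and the NADP-dependent mitochondrial enzyme (IDH2) oxidise isocitrate, and OGDH is the E1 component of the 2-oxoglutarate dehydrogenase complex. SUCLG1 is the alpha subunit of succinyl-CoA ligase, SDHA and SDHB are the flavoprotein and iron-sulphur subunits of succinate dehydrogenase, which is also complex II of the respiratory chain, FH is fumarase, and MDH2 is the mitochondrial malate dehydrogenase that regenerates oxaloacetate.

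The RNA came from longissimus muscle biopsies of cattle, hybridised as pairs of animals to 48 arrays with 2 colours, which gives 96 channels from 35 animals in 26 conditions. Piedmontese × Hereford (PxH) was paired with Wagyu × Hereford (WxH). Fetuses of 60, 135 and 195 days and newborn calves (280 days) had 3 arrays for each time point, and animals aged 3, 7, 12, 20, 25 and 30 months had 4. In the second experiment Belmont Red animals on a weight loss diet, called restricted below, were paired with animals on a growth diet. Each of times 0, 1 and 2 had 4 arrays, and the labels do not give the days behind these numbers. The study's methods describe adult animals under nutritional deprivation and re-alimentation. They do not say which times fell under re-alimentation, so restricted names the arm and not the feeding at each time. The labels give the crosses by the Piedmontese or Wagyu parent only, and the Hereford parent comes from the study's methods. The labels name no transgene and no drug. The 60-day time point rested on 1 animal per cross, each on 3 arrays, and times 1 and 2 of the diet on fewer restricted animals than time 0 (3 and 2, against 4). At 195 days the only PxH codes, GP041A and GP041B, may be 1 animal or 2, and were counted as 2. Values are background-corrected, normalised log2 intensities averaged per animal, so a difference of 1 is a doubling, and levels of different genes are not comparable because each probe has its own brightness. In biopsies, fewer fibres and less RNA per fibre cannot be told apart.

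The 3′-terminal 30 bases of 5 probes are given, either for a motif they hold or because the probe is dim. Whether the motif bears on the values was not tested. The stretches of SUCLG1, SDHB and MDH2 hold a hexamer known as a polyadenylation signal, AATAAA or ATTAAA (in capitals), searched in the deposited strand only; the probes were not placed on transcripts here. Of all probes on the array, 11.8% held AATAAA and 4% ATTAAA. The probes of IDH3A and OGDH are the 2 dim ones and are shown for that reason.
IDH3A: ttcactggacatatatcaagcatggtgcct
OGDH: ccacttttccgtatgagggaccacacgtcc
SUCLG1: ctaaataagaggagcagccAATAAAtctac
SDHB: acacagcgtgtacAATAAAcactctaagaa
MDH2: tcctccaATTAAAtcctgtaatttcttccc

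Of the 9 probes, 8 were well above background in all 96 channels. The OGDH probe was so in 82 channels, and in 10 of 18 prenatal channels, with 1 of 6 at 60 days. Its median signal was 1.59 times the background before birth and 1.91 times in all other channels. The IDH3A probe was detected in every channel, at 3.02 times the background before birth and 8.49 times elsewhere. Differences of both genes are compressed by the added offset of the background correction. No spot of any of the 9 probes was saturated.

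The animal GP672, a PxH sample at 135 days, did not carry the profile of muscle that its label gives. Its 7 skeletal muscle fibre markers averaged 9.74 on the log2 scale, against 14.01 to 14.64 in the other 4 animals of 135 days. Skeletal actin (ACTA1) stood at 10.02, against 16.73 to 17.58, and creatine kinase M (CKM) at 8.77, against 12.73 to 13.72, both genes named after their values were seen. The 4 slow fibre markers averaged 10.99, against 15.27 to 16.15. Its 4 adipocyte markers averaged 13.77, against 8.16 to 9.52, with FABP4, the fatty acid binding protein of fat cells and likewise named afterwards, at 16.56, against 9.02 to 11.63. Over all genes its best correlation with another prenatal or newborn animal was 0.93, where the other 17 animals reached 0.981 to 0.996. GP672 was above the range of the other 4 animals for 6 of the 9 genes, namely CS, IDH2, SUCLG1, SDHA, SDHB and MDH2, below it for FH, and within it for IDH3A and OGDH. The widest gap was in SDHA, at 16.51 against 15.13 to 15.40. Selected prenatal results are therefore also given without this animal.

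**Figure D1:**
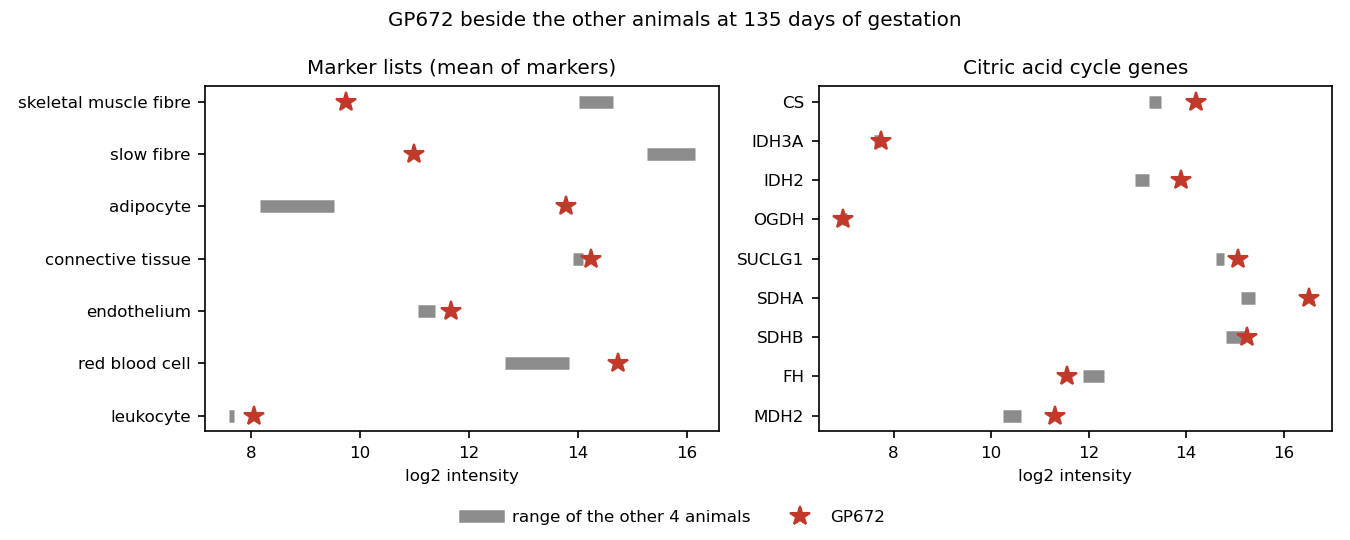
Log2 intensity in GP672 (star) beside the range of the other 4 animals at 135 days of gestation (grey bar), for the mean of each marker list (left) and for each citric acid cycle gene (right). The star lies far below the bar for both muscle fibre lists, far above it for adipocyte markers, and above it for 6 of 9 genes of the cycle.

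The comparison of prenatal with post-natal muscle asked how the cycle changes when a calf passes from fetal to independent life. All 9 genes were higher in the 9 post-natal animals than in the 12 prenatal ones. The stages were hybridised on different slides, so stage and slide cannot be told apart in this comparison. MDH2 lay between 9.99 and 11.30 before birth (median 10.70) and between 13.39 and 13.77 after it (median 13.58), and the increase was 2.83 ± 0.15 (SE; 7.09-fold, adjusted p = 4.9e-13). IDH3A lay between 7.58 and 8.04 before birth (median 7.74) and between 9.39 and 10.08 after it (median 9.59), an increase of 1.86 ± 0.08 (adjusted p = 5.5e-15). Neither gene's animals overlapped between the stages. CS moved from a median of 13.47 (13.08 to 14.20) to 15.29 (15.17 to 15.51), an increase of 1.79 ± 0.12, and IDH2 from 13.44 (12.94 to 14.16) to 15.25 (15.04 to 15.48), an increase of 1.76 ± 0.12. FH rose by 1.46 ± 0.12. Of the succinate dehydrogenase subunits, SDHA rose by 0.99 ± 0.17 and SDHB by 0.97 ± 0.14. Differences between genes in the size of the rise were not tested.

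SUCLG1 rose by 0.81 ± 0.07 and OGDH, whose probe was well above background in 10 of 18 prenatal channels, by 0.43 ± 0.04. With plain background subtraction, in place of the correction with an offset, OGDH rose by 1.02 and IDH3A by 2.48, while the other 7 genes moved by at most 0.09. The adjusted p of the 9 genes ran up to 1.4e-05 (limma, Benjamini-Hochberg over all genes). Of all genes tested, 74.8% passed the same test and 38.8% were higher, and the median difference was 1.46 for the 9 genes and 0.02 for all genes. For 8 of the 9 genes the 2 stages did not overlap, with 21.4% of all genes at this pattern in the same direction. The exception was SDHA, whose prenatal range reached 16.51 in GP672. Without GP672 all 9 genes were free of overlap (23.1% of all genes), and the SDHA increase was 1.09 ± 0.13.

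Other markers moved between the same stages. Of the 7 muscle fibre markers tested, 5 were higher after birth and none lower, all 6 connective tissue markers and all 4 red blood cell markers were lower, and all 4 leukocyte markers were higher. The fibre marker mean was 12.59 to 13.29 at 60 days, 15.34 to 15.57 at 195 days, 15.92 to 16.41 at birth and 16.09 to 16.51 at 3 months, and the connective tissue mean fell from 13.24 to 13.84 at 195 days to 11.02 to 11.88 at birth. The part of these shifts in the results for the cycle was not tested.

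**Figure D2:**
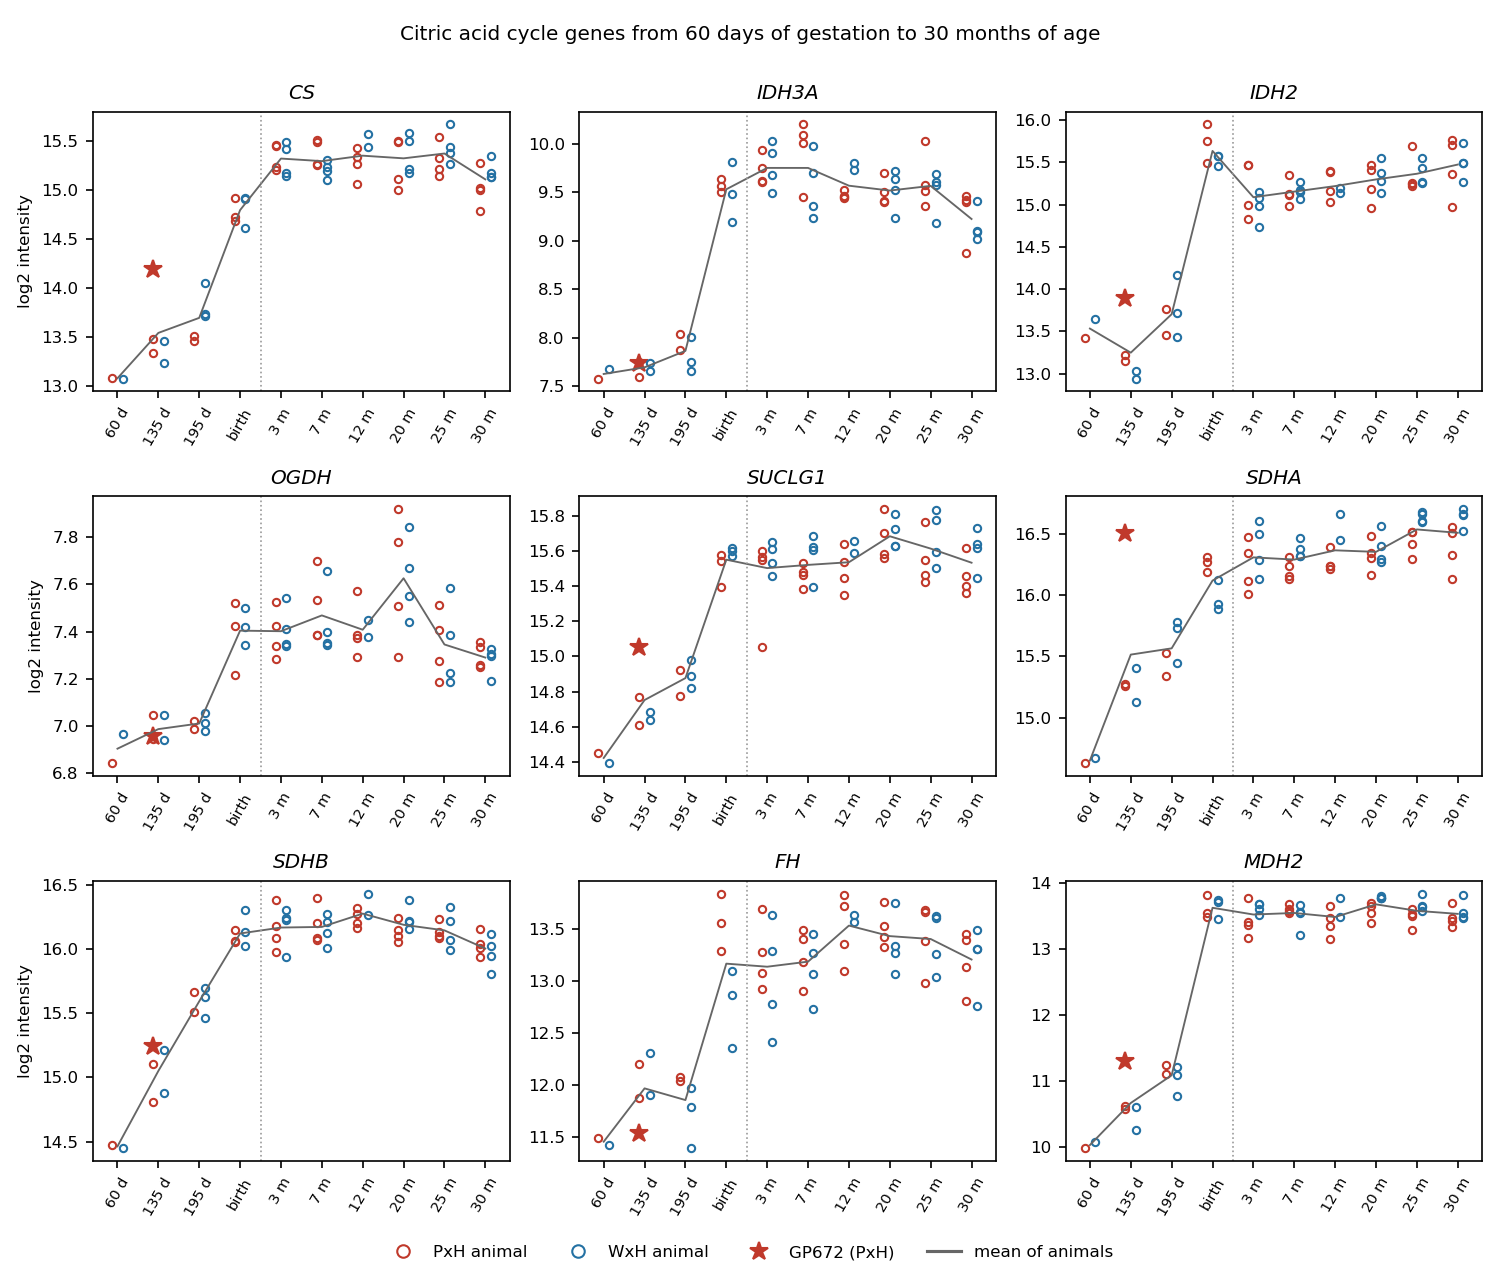
Log2 intensity of each gene (y axis, own scale per panel) at 10 time points (x axis; d, days of gestation; m, months of age), with 1 circle per animal in PxH (red) and WxH (blue), the star for GP672, a grey line through the time point means and a dotted line after birth. The curves climb steeply between 195 days and birth in MDH2, IDH3A, IDH2, FH and CS, more evenly from 60 days in SDHB, and stay within narrow bands from 3 months on.

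The step from 195 days to birth held a change in every gene, and it was read within the same slides, since the arrays of 60, 135 and 195 days and birth shared 3 slides. The position of an array on these slides went with its time point, so position and time cannot be told apart. The fit treats both animals of an array as independent although they share its noise. MDH2 was 10.77, 11.10, 11.10, 11.22 and 11.25 in the 5 animals at 195 days and 13.46 to 13.82 in the 6 newborn animals (median 13.63), and it rose by 2.54 ± 0.14 (5.80-fold, adjusted p = 5.5e-13). IDH2 was 13.43 to 14.16 in the 5 animals at 195 days and 15.46 to 15.95 at birth (median 15.58), and it rose by 1.92 ± 0.16. IDH3A rose by 1.66 ± 0.10, FH by 1.28 ± 0.22 and CS by 1.10 ± 0.14. SUCLG1 rose by 0.68 ± 0.09, SDHA by 0.55 ± 0.18, SDHB by 0.53 ± 0.09 and OGDH by 0.40 ± 0.06. The largest adjusted p of the 9 was 0.0096 (SDHA), 65% of all genes passed, 34.7% as increases and 30.3% as decreases, and the medians were 1.10 for the 9 genes and 0.05 for all genes. With the mean of both channels of an array as the unit, all 9 genes again passed.

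Fewer genes passed in the 2 earlier steps. From 60 to 135 days SDHA rose by 0.86 ± 0.24 (adjusted p = 0.021), MDH2 by 0.63 ± 0.19 (0.031) and SDHB by 0.59 ± 0.12 (0.0024), and the other 6 did not pass, while 12.8% of all genes did, 6.2% as increases and 6.62% as decreases. SDHB was 14.45 and 14.48 at 60 days and 14.81, 14.88, 15.10, 15.21 and 15.24 at 135 days, so its time points did not overlap. CS, SUCLG1, SDHA, FH and MDH2 likewise had all animals of 135 days above both animals of 60 days, and this pattern was found in 15.5% of all genes. With slide as a block 4 genes passed (2274 of all genes), with SUCLG1 at 0.33 ± 0.10 (adjusted p = 0.031) beside the 3 named. With arrays as the unit 6 passed, with CS, SUCLG1 and FH added, and 3803 in place of 1887 of all genes. The 3 arrays of 60 days hold the same 2 animals, so that fit counts repeats of an animal as replicates. Without GP672 the same 3 genes passed (17.8% of all genes), with SDHA at 0.62 ± 0.16 and MDH2 at 0.48 ± 0.16. From 135 to 195 days SDHB rose by 0.54 ± 0.10 (adjusted p = 0.00035), IDH2 by 0.48 ± 0.17 (0.044) and MDH2 by 0.43 ± 0.15 (0.042), where 21% of all genes passed, 10.2% as increases. The IDH2 and MDH2 calls were each lost when any of 8 animals was left out, at adjusted p of up to 0.13 and 0.16, and the SDHB call was never lost. Without GP672 these were 0.59, 0.63 and 0.58, with CS then also past the threshold at 0.31 ± 0.11 (adjusted p = 0.044). With 1 animal per cross at 60 days, the first step rests on the spread of the other time points. Leaving out GP663 or GW911, the animals of 60 days, ended the calls of SDHA and MDH2 but not that of SDHB. Such a fit leaves 1 animal at 60 days. Over all animals left out in turn, the SDHB call came close to the threshold at its weakest.

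SDHB and MDH2 passed the threshold in all 3 steps up to birth, and SDHB rose by similar amounts in each, 0.59, 0.54 and 0.53. The 195 days to birth step made up 31.1% of its rise from 60 days to 3 months and 33% of the SDHA rise, against 49.1% for CS, 62.7% for SUCLG1, 72.6% for MDH2, 76.3% for FH and 78.3% for IDH3A. No share is given for OGDH, whose probe was well above background in 1 of 6 channels at 60 days. For IDH2 the share was 123%, because its level fell again after birth. Without GP672 the shares of these 8 genes ran from 31.2 to 124%. These shares are descriptions, and their differences between genes were not tested.

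From birth to 3 months 1 gene rose and 1 fell. CS rose from 14.61 to 14.92 in the newborn animals (median 14.82) to 15.14 to 15.49 in the 8 animals of 3 months (median 15.33), by 0.53 ± 0.12 (adjusted p = 0.0011). IDH2 fell by 0.55 ± 0.14 (adjusted p = 0.0033), from a median of 15.58 at birth to 15.04. The other 7 genes did not pass, with estimates from -0.10 (MDH2) to 0.22 (IDH3A, adjusted p = 0.057), while 46.2% of all genes passed, 22.4% as increases and 23.8% as decreases. Birth and 3 months were on different slides, so slide and age cannot be told apart here, and with arrays as the unit both calls stayed, at adjusted p of 0.0017 for CS and 0.0021 for IDH2.

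**Figure D3:**
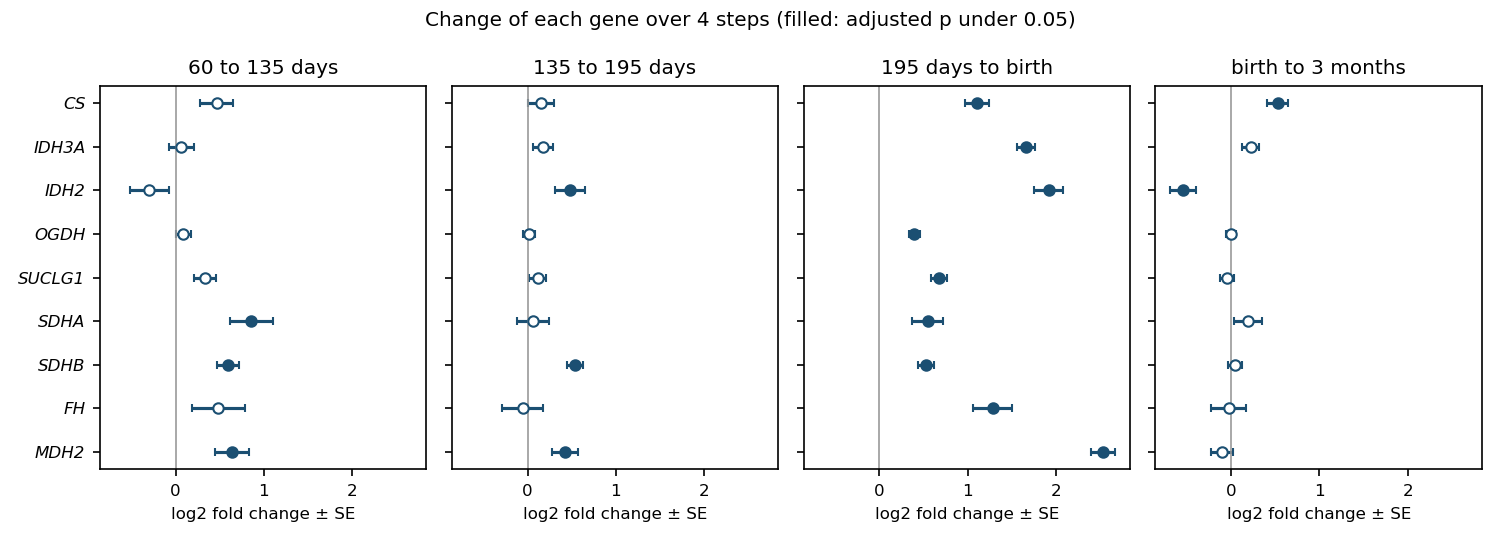
Log2 fold change of each gene (x axis, with its standard error as the bar) over the steps 60 to 135 days, 135 to 195 days, 195 days to birth and birth to 3 months. Filled points have an adjusted p under 0.05; in the third panel all 9 are filled and lie right of 0, from 0.40 for OGDH to 2.54 for MDH2, and in the last one only CS (right) and IDH2 (left) are filled.

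After birth the levels moved little. Over the 6 ages from 3 to 30 months the fitted means of a gene spanned 0.17 (MDH2) to 0.53 (IDH3A), where the median over all genes was 0.34. A test of any change over the ages, with each animal as its own control, passed for 8 of 9 genes, all but MDH2 (adjusted p = 0.14), beside 69.8% of all genes. With arrays as the unit 6 of the 9 passed, OGDH (adjusted p = 0.094), SUCLG1 (0.33) and MDH2 (0.64) not, and 6011 in place of 10274 of all genes did so. Arrays as the unit also drop the pairing within animals. Leaving out 1 animal ended the call of CS (GW245 or GP130), of SDHB (GW169 or GW179) and of SUCLG1 (GP112, GP130, GP285 or GW212).

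Between neighbouring ages few genes passed. No gene passed from 3 to 7 months, where 18.5% of all genes did, 10.3% as increases and 8.22% as decreases. FH rose by 0.33 ± 0.12 from 7 to 12 months (adjusted p = 0.047), where 14.8% of all genes passed, 8.58% as increases and 6.22% as decreases. OGDH rose by 0.22 ± 0.06 from 12 to 20 months (adjusted p = 0.0091), where 16.7% passed, 6.99% as increases and 9.66% as decreases. From 20 to 25 months OGDH fell by 0.28 ± 0.06 (adjusted p = 0.00089) and SDHA rose by 0.18 ± 0.06 (0.046), where 15.3% passed, 6.59% as increases and 8.75% as decreases. The dim OGDH probe was well above background in 7 of 8 channels at 12 months, 8 of 8 at 20 months and 5 of 8 at 25 months. The arrays of 20 and 25 months were on different slides, so age and slide cannot be told apart in this step. On the slides of 3, 7, 12 and 20 months each age kept its own position. Those of 25 and 30 months also kept to different positions, so position and age cannot be told apart in the steps within slides. With array-by-dye median centring FH was -0.04 from 7 to 12 months and SDHA -0.70 from 20 to 25 months, both with the sign turned, where the medians of all genes were -0.11 and -0.29. These 4 calls were lost with arrays as the unit, at adjusted p of 0.060, 0.25, 0.15 and 0.22, in a fit that also drops the pairing within animals. Leaving out 1 of the 9 animals ended the FH call in 7 cases, the SDHA call in 6 and the OGDH rise in 1 (GP285). From 25 to 30 months CS fell by 0.26 ± 0.07 (adjusted p = 0.0084) and IDH3A by 0.34 ± 0.12 (0.028), where 24.9% of all genes passed, 13.7% as increases and 11.2% as decreases, and with arrays as the unit CS kept its call (0.028) and IDH3A did not (0.094). The direction of both depended on the scaling: with array-by-dye median centring CS was 0.81 higher at 30 months (adjusted p = 0.046) and IDH3A 0.31 higher (0.22), where the median of all genes moved by 0.48. IDH3A was 9.19 to 10.03 at 25 months (median 9.57) and 8.88 to 9.46 at 30 months (median 9.25), so the ranges overlapped, and the call was lost without GP130 (-0.23, adjusted p = 0.17), GW169, GW179 or GW212. At 12 months WxH was represented by 2 animals, 1 of them on 3 arrays.

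The crosses differ in muscling and marbling, and the cycle genes were set side by side in them at each stage. No gene differed between PxH and WxH before birth, at birth or after birth, nor did any difference change between the stages. Beside this count of 0 in limma, 0 genes before birth, 1 at birth and 1 after birth were under an unadjusted p of 0.05. Of all genes 0% passed before birth, 0.0068% at birth, each of them lower in PxH, and 0% after birth. FH held the largest difference, at birth, with 13.30, 13.56 and 13.84 in the 3 PxH calves and 12.36, 12.87 and 13.10 in the 3 WxH calves. Its ranges did not overlap and the difference was 0.79 ± 0.23 higher in PxH, with an adjusted p of 0.76. SDHA was the other gene with no overlap at birth (0.28 ± 0.12 higher in PxH), a pattern that 4.72% of all genes showed in this direction. After birth SDHA was 0.21 ± 0.06 lower in PxH (adjusted p = 0.59). Estimates of the other genes ran from -0.12 to 0.10 after birth and from -0.03 to 0.21 before it, MDH2 being the highest, and that one was 0.11 ± 0.10 without GP672.

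The diet experiment asked how muscle answers a loss of weight and its return. At time 0 no gene differed between the arms by limma's adjusted p or by an unadjusted p of 0.05, and 1.02% of all genes passed, 0.523% higher and 0.496% lower in restricted animals. MDH2 then stood at 13.30 to 13.83 in restricted and 13.55 to 14.03 in growth animals, overlapping ranges. IDH3A stood at 8.74 to 10.16 in restricted and 9.33 to 9.95 in growth animals, also overlapping, a difference of -0.25 ± 0.28. At time 1 MDH2 was 12.35, 12.44 and 13.001 in the 3 restricted animals and 13.42, 13.57, 13.63 and 13.75 in the 4 growth animals. The arms did not overlap, and MDH2 was 1.00 ± 0.17 lower in restricted animals (1.99-fold, adjusted p = 0.014). IDH3A was 8.08, 8.68 and 9.08 in the restricted animals and 9.47, 9.62, 9.75 and 10.14 in the growth animals, again without overlap, and 1.13 ± 0.25 lower (adjusted p = 0.027). In all, 2 of 9 genes passed, both lower, beside 14% of all genes and 6.92% as decreases. CS, SUCLG1 and SDHA were also free of overlap, with lower values in restricted animals (14.5% of all genes), and did not pass, at differences of -0.61 (adjusted p = 0.065), -0.32 (0.10) and -0.48 (0.11). At time 0 these genes already stood at -0.32 (CS), -0.17 (SUCLG1) and -0.46 (SDHA), none past the threshold. The difference between the arms in their change to time 1 was -0.25, -0.11 and 0.13, and none passed.

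SDHB stood on the other side. It was 16.39, 16.56 and 16.77 in restricted animals and 15.91, 15.97, 16.37 and 16.47 in growth animals, a difference of 0.40 ± 0.17 that did not pass (adjusted p = 0.17). Followed within animals from time 0 to time 1, SDHB rose by 0.56 ± 0.14 in restricted animals (adjusted p = 0.030) and MDH2 fell by 0.92 ± 0.14 (0.0051), beside 14.6% of all genes. IDH3A changed by -0.81 ± 0.26 (adjusted p = 0.060). MDH2 went down in each of the 3 restricted animals measured at both times, from 13.83 to 13.001 (RL24), from 13.42 to 12.35 (RL27) and from 13.30 to 12.44 (RL671). In growth animals no gene passed in limma, 1 had an unadjusted p under 0.05, and 2.79% of all genes passed, with MDH2 at -0.12 ± 0.12. The difference between the arms in this change passed for MDH2, at -0.81 ± 0.18 (adjusted p = 0.021), while IDH3A (-0.92 ± 0.34, adjusted p = 0.10) and SDHB (0.57 ± 0.19, 0.075) did not pass, and 12.3% of all genes did.

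From time 1 to time 2 MDH2 rose by 0.77 ± 0.16 in restricted animals (adjusted p = 0.042, 2.3% of all genes), on the 2 animals still measured, which then stood at 13.43 and 13.49, and leaving out 1 animal ended this call in 6 of 8 cases. No gene passed in growth animals (0% of all genes), in the difference of the changes (0.795%) or between the arms at time 2 (0%), where 2 animals faced 2. Unadjusted p under 0.05 were counted for 3 genes in growth animals, 5 in the difference of the changes and 0 between the arms.

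These diet results rest on few animals. The IDH3A call at time 1 was lost on leaving out any of 5 animals (RL27, RL671, RG166, RG208 or RG604) and the MDH2 call on leaving out RL27. Without RL27 neither MDH2 (adjusted p = 0.052) nor IDH3A (0.081) passed at time 1, and the MDH2 rise to time 2 became 0.49 (adjusted p = 0.51). The difference between the arms in the MDH2 change was -0.73 without RL27 (adjusted p = 0.071), and it also missed the threshold without RG166 (0.059) or RG208 (0.058). The SDHB rise was not past the threshold without RL27 (adjusted p = 0.17), RL671 (0.10), RL24 (0.082) or RG166 (0.051). With each array taken as a pair of animals (a replicate block), the differences at time 1 were -0.99 for MDH2 and -1.18 for IDH3A, with adjusted p of 0.055 and 0.064. Markers of other cells moved in the same libraries. The fibre marker mean was 14.84 to 15.26 in restricted animals at time 1, against 16.33 to 17.32 in growth animals, with 3 of 7 fibre markers lower and 1 higher by the test. The connective tissue mean was 9.32 to 10.03, against 11.74 to 12.97, with 5 of 6 lower, and 0 of 4 adipocyte markers passed. Each diet time had its own slide, holding both arms. The part of these markers in the diet results was not tested.

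**Figure D4:**
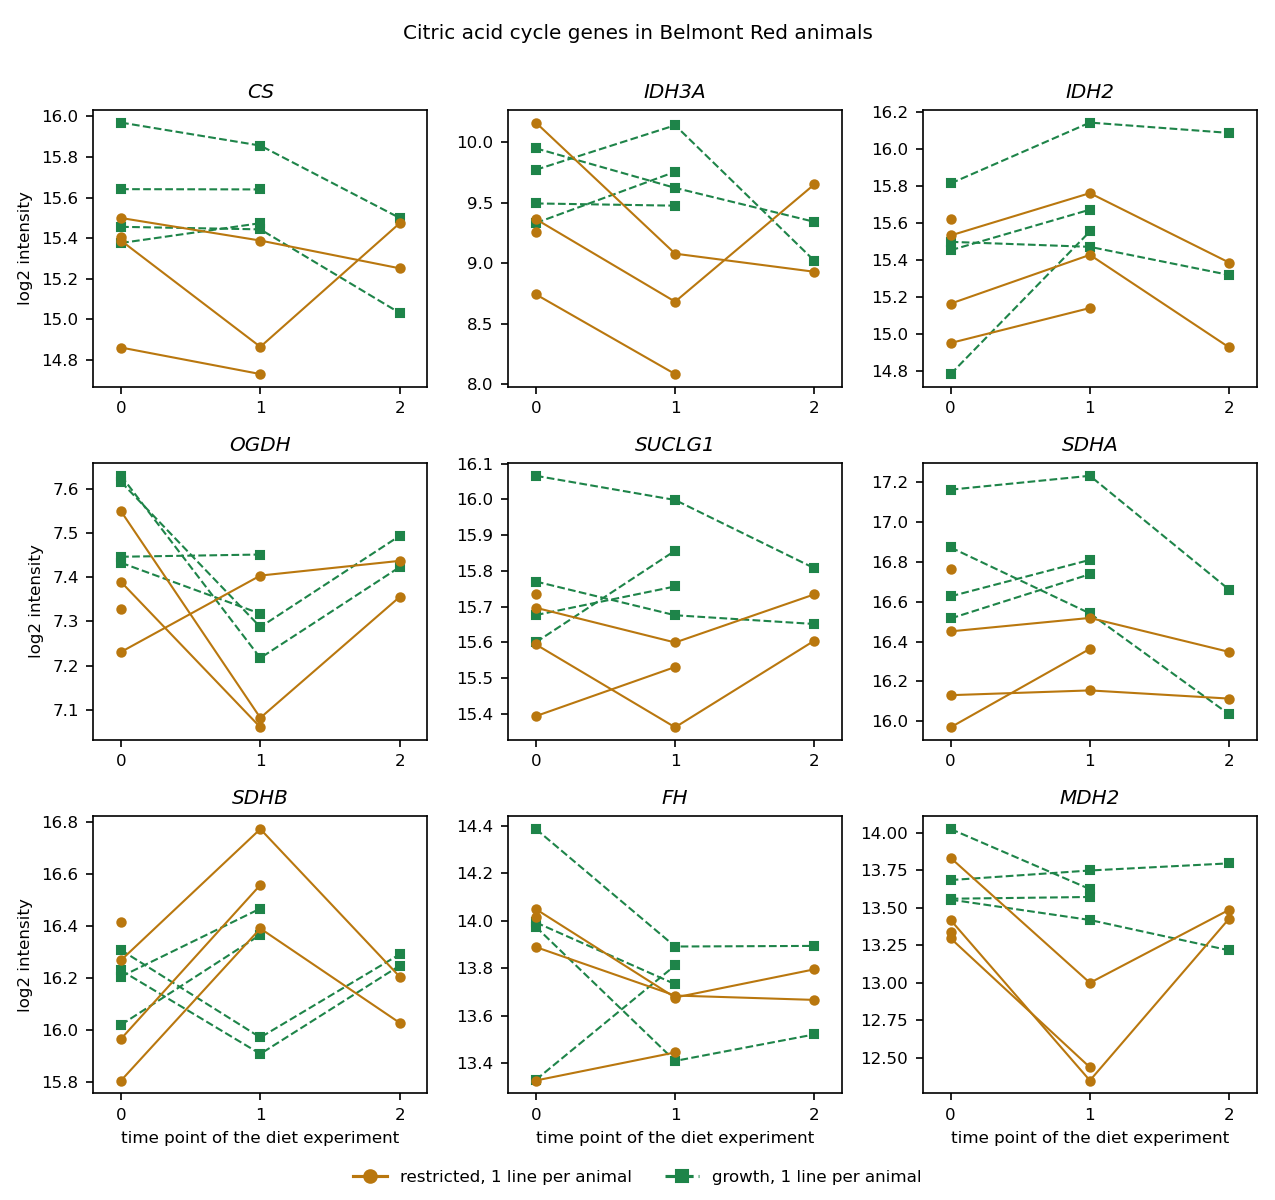
Log2 intensity of each gene (y axis, own scale per panel) at times 0, 1 and 2 of the diet experiment, with a line per restricted animal (circles, solid) and per growth animal (squares, dashed). At time 1 all restricted animals lie under all growth animals for MDH2 and IDH3A, and the SDHB lines of restricted animals peak there.

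The other genes of the pathway were taken from lists chosen with earlier results of these data known. Of 8 further subunits of the cycle tested, 7 were higher after birth than before, with a median of 1.68, where 38.8% of all genes were higher and 74.8% passed in either direction. They were led by SUCLA2 (2.32), the beta subunit of the ATP-forming succinyl-CoA ligase, and DLD (2.19), the E3 component shared by the 2-oxo acid dehydrogenases. IDH3B, a regulatory subunit of isocitrate dehydrogenase, was the exception, named after its value was seen, at 0.07 (adjusted p = 0.74). All 3 tested genes of the pyruvate dehydrogenase complex, which feeds the cycle with acetyl-CoA, were higher, with DLAT at 2.83 and PDHX at 2.36. Of its 6 kinases and phosphatases 4 were higher and none lower, a share of calls near the 74.8% of all genes in either direction, where 38.8% were higher. PDK4, the kinase known for shutting the complex in fasted muscle, rose by 7.37 from 195 days to birth (adjusted p = 1.7e-16) and fell by 0.56 to 3 months (0.031). Of 15 genes of side reactions and cytosolic counterparts, 11 were higher and 1 lower after birth. Their calls in either direction were also near the 74.8% of all genes, where 38.8% were higher. GOT2, the mitochondrial aspartate aminotransferase that works with MDH2 in the malate-aspartate shuttle, was 3.20 higher, ME3, a mitochondrial malic enzyme, 2.68 higher, and ACLY, which splits exported citrate for fat synthesis, 2.17 lower. No assembly factor of succinate dehydrogenase was found on the array under the names searched.

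In the same lists at time 1 of the diet, 4 of 8 further subunits were lower in restricted animals and none higher, beside 6.92% of all genes lower and 7.09% higher, with SUCLA2 at -1.09 (adjusted p = 0.0076) and DLD at -0.78 (0.042). DLAT was lower by 1.37 (adjusted p = 0.023), as 1 of 3 genes of the pyruvate dehydrogenase complex. Of the side reactions 5 of 15 were lower, among them GOT1, the cytosolic aspartate aminotransferase, at -1.14, and 1 was higher, ME3 at 1.54 (adjusted p = 0.014). Among the kinases and phosphatases PDP2 alone passed, higher by 0.38 (adjusted p = 0.042). Between the crosses after birth none of these lists held a gene that passed.

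Across the 26 condition means the 36 pairs of the 9 genes were correlated at 0.80 to 0.97, with a median of 0.91, and at 0.72 to 0.99 over the 8 prenatal and birth conditions. Within the 12 post-natal conditions the pairs ran from -0.82 (IDH3A with IDH2) to 0.75 (SUCLG1 with MDH2), with a median of 0.26 and 28 of 36 above 0. In the 6 diet conditions they ran from -0.89 (SDHB with MDH2) to 0.97 (CS with IDH3A). The conditions share animals, slides and arrays, so these values are descriptions. Without GP672 the pairs ran from 0.81 to 0.97 over all conditions and from 0.77 to 0.99 over the 8 prenatal and birth conditions. The genes whose profile over the 26 conditions was most like the mean profile of the 9 were ECSIT (r = 0.993), which takes part in complex I assembly, ETFA (0.992), a subunit of the electron transfer flavoprotein, AIFM1 (0.991), the mitochondrial apoptosis-inducing factor, NDUFV2 (0.990), a subunit of complex I, and MRPS36 (0.990), now known as a subunit of the 2-oxoglutarate dehydrogenase complex. The same 5 genes came first without GP672. Over the 12 post-natal conditions alone their correlations with that profile were 0.21, 0.76, 0.32, 0.46 and 0.78.

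**Figure D5:**
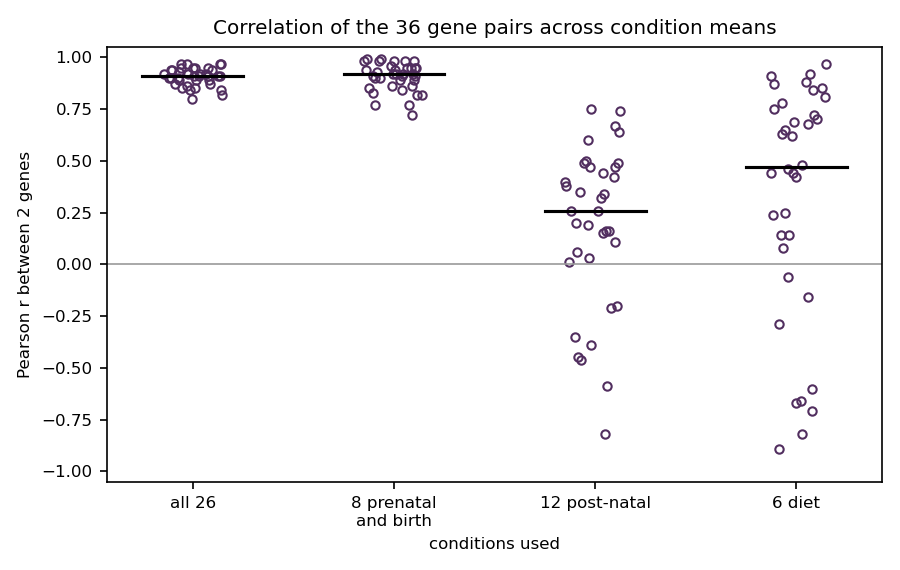
Pearson correlation (y axis) of the 36 pairs of genes across condition means, for all 26 conditions and for 3 subsets of them (x axis), with 1 circle per pair and a black line at the median. The circles lie at 0.80 or higher over all conditions and spread from -0.82 to 0.75 over the 12 post-natal ones.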

How the data were processed

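Longissimus RNA of 35 animals was hybridised to 48 Agilent arrays with 2 colours. Per the labels the authors read them with Agilent Feature Extraction 9.5.1, and the deposited files hold the mean and background intensity of each spot and a log10 ratio of red over green. Of 21475 probes, 16484 were named through the RefSeq gene table and 4991 kept the file's name.

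Intensities were corrected with normexp (offset 50), normalised by loess within and Aquantile between arrays, averaged over spots, filtered to probes well above background in 24 of 96 channels, and averaged per gene and, after removing each gene's dye effect, per animal. Between 49.9 and 76.4% of probes were well above background in a channel, and the number of arrays limits the precision. Tests used limma 3.58.1 in R 4.3.3, with Benjamini-Hochberg adjustment over 14715 genes and a threshold of 0.05. No 2 channels were identical. Some animals were measured on several arrays and were counted once per time point. The 4 steps from 60 days to 3 months shared 1 fit with cross as a term. All post-natal ages shared 1 fit, and all changes between diet times shared 1 fit of both arms. The spread in these fits came from all their animals. The other comparisons used only their own groups. Post-natal ages and diet times were compared within animals.

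The members and lists were chosen with earlier results of these data known. Named were all 9 genes, up to 2 rises and 2 falls per list, and 5 genes of like profile. Alternatives were plain background subtraction, array-by-dye median centring, quantile normalisation, other filters, the brightest probe, other treatments of dye, slide and array as blocks, the deposited log ratios, and leaving out each animal. Arrays as the unit and the descriptions without GP672 were added after seeing the data. The fit with arrays as the unit has no term for the animal, so repeated samples of an animal counted as separate. The pairing of channels is that of the arrays. Promoters and proteins were not analysed here.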

Additional observations from a re-analysis of the deposited data

Results flagged for a closer look

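Within the animals of a time point or diet arm, 108 sets of 4 to 8 animals were examined for a value far from all others, and 5 were found, where chance gives about 1 in 20. At 135 days GP672, the animal with low muscle markers, stood highest in CS, at 14.20 with the next animal at 13.48, and in SDHA, at 16.51 with the next at 15.40. Among newborn calves GP148 stood lowest in SUCLG1, at 15.39 with the next at 15.54. At 3 months GP112 stood lowest in SUCLG1, at 15.05 with the next at 15.46. At 7 months GW179 stood lowest in MDH2, at 13.21 with the next at 13.54.

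The change from diet time 0 to time 1 differed between the arms for MDH2, at -0.81 (restricted minus growth, log2 scale, adjusted p = 0.021 in limma). It was the 1 difference to pass among 27 such tests on the 9 genes, over the change between the diet arms in 2 intervals and between the crosses after and before birth.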

How the results depend on the processing

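The counts below are of the 9 genes past the threshold. They stayed at 9 or 8 under every alternative run for prenatal against post-natal and for 195 days to birth, and at 0 for the crosses, for diet times 0 and 2, for the growth arm and for 3 to 7 months. Of 1242 repeats of single calls, 1128 kept direction and call, 110 kept the direction only and 4 reversed.

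Array-by-dye median centring gave 0 in place of 3 from 60 to 135 days and from 135 to 195 days, 1 in place of 2 from birth to 3 months, 1 in place of 8 over the post-natal ages, 0 from 7 to 12, 12 to 20 and 20 to 25 months, 8 in place of 2 from 25 to 30 months, 1 in place of 2 for restricted animals from time 0 to 1, and 0 in place of 1 from time 1 to 2. It uses no loess, and it shifted the median of all genes by -0.11 from 7 to 12 months, -0.29 from 20 to 25 and 0.48 from 25 to 30. There FH (7 to 12 months, -0.04), SDHA (20 to 25, -0.70), CS (25 to 30, 0.81) and IDH3A (25 to 30, 0.31) reversed. Relative to those medians SDHA stayed reversed, as did CS, but not FH or IDH3A. From 195 days to birth 6195 in place of 9564 of all genes passed, and from 3 to 7 months 29 in place of 2719. All genes called then numbered 420, 423, 2364, 4527, 28, 37, 87 and 10757 in the developmental steps named, in place of 1887, 3094, 6805, 10274, 2177, 2451, 2258 and 3669.

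Arrays as the unit gave 6 in place of 3 from 60 to 135 days, 0 from 7 to 12, 12 to 20 and 20 to 25 months and 1 from 25 to 30 months. This fit counts the arrays of 60 days as replicates although all hold the same 2 animals. The count was 1 from 135 to 195 days without the filter on dim probes or with both GP041 codes as 1 animal. From 7 to 12 months it was 0 with plain subtraction or without the filter, from 12 to 20 months 0 with only probes detected in all 96 channels, which leave out OGDH, and from 20 to 25 months 1 with plain subtraction, quantile normalisation, that filter or the dye effect kept. With the dye effect kept it was 1 in restricted animals from time 0 to 1 and 0 from time 1 to 2, where plain subtraction also gave 0. The difference of arms from time 0 to 1 held 2 with quantile normalisation or a dye effect per experiment. At diet time 1 the replicate block of array pairs and the deposited log ratios both gave 0 in place of 2 (690 and 1046 in place of 2061 genes in all), and the block changed no other call of the 9 genes, with 0 in place of 150 of all genes at time 0.

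Leaving out 1 animal at a time gave 1 to 4 from 60 to 135 and 135 to 195 days, 2 to 3 from birth to 3 months, 6 to 8 over the post-natal ages, 0 to 1 from 7 to 12 and 12 to 20 months, 1 to 2 from 20 to 25 and 25 to 30 months, 0 to 3 at diet time 1, 1 to 2 in restricted animals from time 0 to 1, 0 to 2 for the difference of arms, and 0 to 1 in restricted animals from time 1 to 2. The cause of these moves was not tested. Over the alternatives the number of all genes called ran from 0 to 171 at diet time 0 (main 150), 243 to 694 in growth animals from time 0 to 1 (411), 163 to 510 in restricted animals from time 1 to 2 (339) and 51 to 285 for the difference of arms there (117), and arrays as the unit gave 3803 of them from 60 to 135 days.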
